A study of Mus musculus with 10 samples.

Results

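Genes for receptors and a ligand of phagocytic uptake were followed across sorted phagocytes of mouse Peyer's patches and blood: Axl, Mertk, Gas6, Timd4, Lrp1, Cd36, Msr1, Cd163, Stab1 and Marco. They were taken by name, as 10 of the 32285 genes counted in each of 2 single-cell datasets, with earlier results of these data known. Peyer's patches are lymphoid tissue of the small intestine. Their LysoDCs are lysozyme-expressing, antigen-sampling phagocytes, sorted as follicular, immature, intermediate and mature gates. Maturing and immature conventional type 2 dendritic cells (cDC2s) came from the same tissue. Blood gave cells with high CD115 that lacked both Ly6C and CD43 (DN blood cells), CD43+ monocytes and Ly6C+ monocytes. All animals were female C57BL/6Rj mice. Blood donors had received clodronate liposomes, which deplete phagocytes, 9 days before collection, whereas Peyer's patch donors were untreated, so tissue and this treatment cannot be told apart. For dataset 1, patches of 30 mice were pooled and blood of 20, giving 9 hashtagged populations in 1 library. Dataset 2 used 20 and 18 mice in 4 libraries. By the labels its blood populations lay in libraries of their own, so among them population and library cannot be told apart.

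Phagocytes recognise dying cells through phosphatidylserine, which moves to the outer membrane leaflet. Axl and Mertk are receptor tyrosine kinases that bind it through the bridging ligand Gas6, while Timd4 binds it directly. Lrp1 is a large endocytic receptor of the low-density lipoprotein receptor family that also takes part in engulfment. Msr1 and Marco are class A scavenger receptors, Cd36 is a class B scavenger receptor that takes up fatty acids and oxidised lipoproteins, Stab1 is a scavenger receptor of the stabilin family, and Cd163 takes up haemoglobin-haptoglobin complexes. Resident macrophages are a usual site of several of these genes. On GRCm38 the kinases and ligand lie as Axl at chr7:25757273-25788705 (minus strand), Mertk at chr2:128698956-128802894 (plus strand) and Gas6 at chr8:13465374-13494490 (minus strand). Timd4 and Lrp1 lie as Timd4 at chr11:46810800-46844332 (plus strand) and Lrp1 at chr10:127538161-127621148 (minus strand). The scavenger receptors lie as Cd36 at chr5:17781690-17888801 (minus strand), Msr1 at chr8:39581685-39642673 (minus strand), Cd163 at chr6:124304656-124330527 (plus strand), Stab1 at chr14:31139013-31168641 (minus strand) and Marco at chr1:120474538-120505024 (minus strand). Counts are totals per gene from a 3' kit and do not describe coverage along these spans.

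A total of 7878 cells of dataset 1 and 7470 cells of dataset 2 carried 1 hashtag and passed the cell filters, with median depths per population of 2312 to 14346 unique molecular identifiers (UMIs, the counted molecules). The datasets shared 37 barcode sequences. Levels below are counts per 1000000 UMIs (CPM) in the summed cells of a population. The 4 LysoDC hashtags of dataset 2 could not be assigned to gates, and for its mature LysoDC library the hashtag list names immature cells against the title. CCR2+ and CCR2- DN blood cells were sorted into separate libraries of dataset 2 but carried the same hashtag, so its DN values merge both. Barcodes with several hashtags were left out, and in dataset 2 their levels of Msr1 (206 CPM), Stab1 (76.0 CPM) and Axl (70.7 CPM) were near those of LysoDCs. A background-scaled hashtag call gave 2921 LysoDCs in dataset 2 in place of 681, so many of them may be missing here. The 5 LysoDC markers (Lyz1, Lyz2 and 3 complement C1q genes) summed to 57050 to 77890 CPM in LysoDCs, against 4562 to 45244 CPM in all other populations. By summed CPM the 5 cDC2 markers went against their label. They were lowest of all populations in maturing (299 CPM) and immature (283 CPM) cDC2s. LysoDCs and monocytes had 331 to 469 CPM and DN blood cells 1226 and 1631 CPM. By number at 10 CPM or more, both cDC2 populations had all 5 markers, as did DN blood cells and Ly6C+ monocytes. LysoDCs had 1 or 2 and CD43+ monocytes 3 and 1. The list therefore did not settle the label, and these cells are called cDC2s by their sort label only. Of these markers Flt3 was at 65.6 and 105.6 CPM in maturing and immature cDC2s and at 50.9 and 79.0 CPM in DN blood cells. C1q UMIs, which mark LysoDCs here, also appeared in other populations, at 5.001% to 5.91% of the LysoDC level in blood cells of dataset 1 and at most 1.19% in dataset 2. In cDC2s they reached 19.1% (maturing) and 3.42% (immature). The part of LysoDC RNA in the levels of other populations was not tested.

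The promoters of 4 members are printed because they hold the 2 opposite patterns described below, Axl, Mertk and Stab1 being highest in LysoDCs and Lrp1 nearly absent there. RefSeq (GRCm38.p6) listed promoters for 9 of the 10 members, each running from 250 bases before the start to 50 after it. Capitals mark matches, on either strand, to GAGGAA (PU.1 box core), GGGCGG (GC box), TGANTCA (AP-1 site) or CACGTG (E-box of the MITF and TFE kind).
Axl, chr7:25788684-25788983, minus strand: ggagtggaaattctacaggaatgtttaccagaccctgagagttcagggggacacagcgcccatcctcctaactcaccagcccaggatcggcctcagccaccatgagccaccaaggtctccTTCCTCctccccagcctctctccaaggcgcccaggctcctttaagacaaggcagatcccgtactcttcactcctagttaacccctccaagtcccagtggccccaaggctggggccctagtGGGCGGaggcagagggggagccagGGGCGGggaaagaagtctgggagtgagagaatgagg
Mertk, chr2:128698665-128698964, plus strand: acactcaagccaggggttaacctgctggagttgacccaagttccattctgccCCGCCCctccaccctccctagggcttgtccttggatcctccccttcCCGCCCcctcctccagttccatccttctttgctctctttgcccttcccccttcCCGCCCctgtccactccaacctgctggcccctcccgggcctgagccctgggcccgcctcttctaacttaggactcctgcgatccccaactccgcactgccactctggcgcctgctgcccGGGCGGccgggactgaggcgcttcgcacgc
Stab1, chr14:31168592-31168891, minus strand: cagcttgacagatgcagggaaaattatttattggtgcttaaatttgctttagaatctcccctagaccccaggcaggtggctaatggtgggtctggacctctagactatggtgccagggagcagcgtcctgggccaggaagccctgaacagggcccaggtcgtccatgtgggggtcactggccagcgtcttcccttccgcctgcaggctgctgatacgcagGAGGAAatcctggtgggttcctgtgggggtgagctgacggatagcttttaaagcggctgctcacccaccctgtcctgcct
Lrp1, chr10:127621099-127621398, minus strand: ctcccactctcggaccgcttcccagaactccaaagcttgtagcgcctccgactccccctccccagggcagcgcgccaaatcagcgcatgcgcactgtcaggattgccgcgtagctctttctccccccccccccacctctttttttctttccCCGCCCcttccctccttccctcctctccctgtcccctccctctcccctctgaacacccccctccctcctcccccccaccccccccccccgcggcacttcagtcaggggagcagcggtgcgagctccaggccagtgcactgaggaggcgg
GAGGAA occurred in Axl and Stab1, and GGGCGG occurred 2 times in Axl, 4 times in Mertk and 1 time in Lrp1. Neither TGANTCA nor CACGTG was present in any of the 9 member promoters. Of 27025 promoters of this length, 28.3% held GAGGAA, 35.9% GGGCGG, 7.93% TGANTCA and 7.24% CACGTG. A match is a run of letters and not a known binding site.

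LysoDCs had more RNA for Axl, Mertk, Msr1 and Stab1 than blood monocytes, and less for Lrp1, Cd36 and Cd163. Of the 8 members that passed the filter on low counts, 4 were higher and 3 lower at an adjusted p under 0.05, while 58.0% of the 11474 genes tested were called in this comparison. Against DN blood cells 4 were higher and 3 lower, with 53.2% of all genes called. Both shares are so high that the number of members called says little by itself. The 4 higher members include Mertk in both comparisons, whose protein was in the sort stain, so its call is not a finding. Gas6 and Timd4 failed the filter and have values only. Tests were edgeR quasi-likelihood fits on 8 sums of cells, with 2 pools of mice per population and dataset as a block. The pools are the replicates. With dataset as a block, p-values measure how far differences between populations varied between the 2 datasets, with the spread shared over all populations fitted. In dataset 2 this spread also holds differences between libraries. Fitted changes are log2 fold changes with approximate standard errors (SE).

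**Figure D1:**
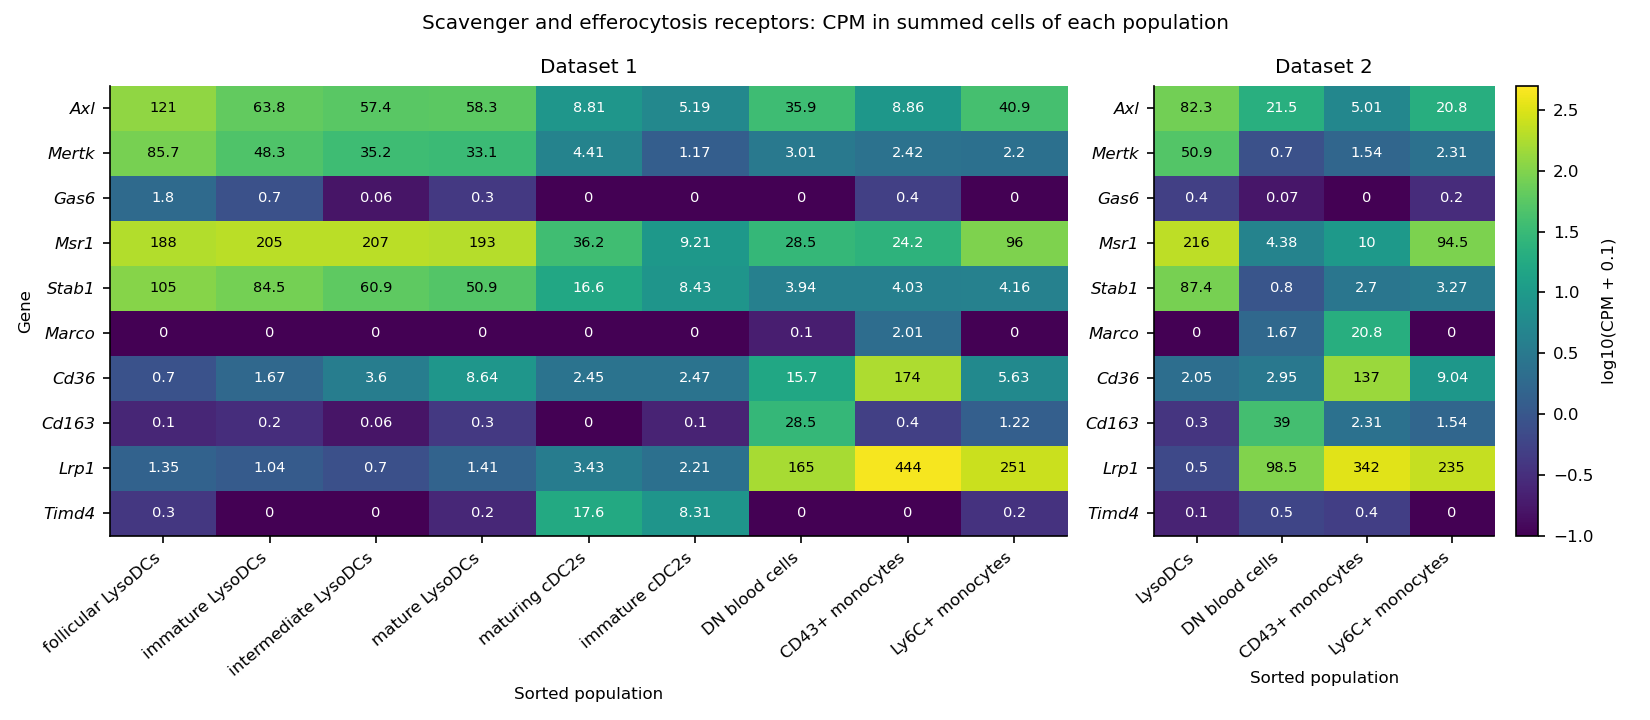
Heat map of the CPM of each gene (rows) in the summed cells of each sorted population (columns) of dataset 1 and dataset 2, coloured by log10(CPM + 0.1) with the CPM printed in each cell. Axl, Mertk, Msr1 and Stab1 are brightest in the LysoDC columns, whereas Lrp1 is near 1 CPM there and at 98.5 to 444 CPM in blood cells.

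Axl was at 121 CPM in follicular, 63.8 CPM in immature, 57.4 CPM in intermediate and 58.3 CPM in mature LysoDCs of dataset 1. It was at 82.3 CPM in all LysoDCs of dataset 2. In blood it was at 35.9 and 21.5 CPM in DN blood cells, 8.86 and 5.01 CPM in CD43+ monocytes and 40.9 and 20.8 CPM in Ly6C+ monocytes of dataset 1 and dataset 2. All LysoDC values lay above all blood values, and CD43+ monocytes were the low end of blood in both datasets. The fitted change was 2.62 ± 0.21 for LysoDCs over monocytes (SE, adjusted p = 4.13e-06) and 1.53 ± 0.21 over DN blood cells (adjusted p = 0.00021). Within blood, Axl was higher in DN blood cells than in CD43+ monocytes by 2.25 ± 0.30 (SE, adjusted p = 0.00043). CD43+ monocytes were lower than Ly6C+ monocytes by -2.32 ± 0.31 (SE, adjusted p = 0.000624). Against Ly6C+ monocytes the DN difference was -0.07 ± 0.22 (adjusted p = 0.873) and did not pass the test. These 4 calls of Axl were made in each of the 15 alternative settings. C1q, at 5.22% of its LysoDC level in DN blood cells of dataset 1, stood beside an Axl level at 51.1% of the LysoDC level.

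Mertk was at 85.7 CPM in follicular, 48.3 CPM in immature, 35.2 CPM in intermediate and 33.1 CPM in mature LysoDCs, and at 50.9 CPM in LysoDCs of dataset 2. DN blood cells had 3.01 and 0.73 CPM, CD43+ monocytes 2.42 and 1.54 CPM and Ly6C+ monocytes 2.20 and 2.31 CPM. The LysoDC range did not overlap the blood range. The protein was among those stained for the Peyer's patch sort, so differences that involve these gates may follow the gate and are given as descriptions, with no test. The fitted change was 4.71 over monocytes and 5.08 over DN blood cells. In blood of dataset 1 the Mertk level was 4.69% to 6.40% of that in LysoDCs, beside C1q at 5.001% to 5.91%.

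Gas6, the ligand of Axl and Mertk, was close to the counting limit everywhere. Follicular LysoDCs held 12 UMIs (1.80 CPM), immature 7, intermediate 1 and mature 2 UMIs, and LysoDCs of dataset 2 held 3 UMIs. DN blood cells had 0 UMIs in dataset 1 and 2 UMIs in dataset 2. A count of 0 in DN blood cells of dataset 1 allows up to 0.311 CPM (3 counts), for counting error only. Pros1, which encodes a bridging ligand of Mertk, was lower in LysoDCs than in monocytes by a fitted -2.44 ± 0.20 (SE, adjusted p = 2.2e-06). It was at 2.54 and 3.69 CPM in LysoDCs, against 19.3 and 18.1 CPM in CD43+ and 18.1 and 17.3 CPM in Ly6C+ monocytes. Tyro3, the third kinase of the family, had no UMI in any population of dataset 1 and was at 0.19 CPM in Ly6C+ monocytes of dataset 2.

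Timd4 was measured mainly in cDC2s. Maturing cDC2s held 36 UMIs (17.6 CPM, 95% Poisson interval 12.3 to 24.4) and immature cDC2s 64 UMIs (8.31 CPM, 6.40 to 10.6). The 4 LysoDC gates had 0 to 2 UMIs each and blood cells of dataset 1 had 0 or 1. In dataset 2 the 4971 DN blood cells held 14 UMIs (0.486 CPM), and all 4 populations stayed under 1 CPM. Without a second pool of cDC2s the difference has no replicate check.

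Lrp1 ran the other way. LysoDCs were at 1.35, 1.04, 0.707 and 1.41 CPM in the follicular, immature, intermediate and mature gates and at 0.546 CPM in dataset 2. DN blood cells had 165 and 98.5 CPM, CD43+ monocytes 444 and 342 CPM and Ly6C+ monocytes 250.9 and 235 CPM. Blood and LysoDC values did not overlap, and CD43+ monocytes were highest in both datasets. The fitted change was -8.27 ± 0.25 for LysoDCs over monocytes (SE, adjusted p = 7.17e-09) and -7.12 ± 0.26 over DN blood cells (adjusted p = 1.1e-08). In ratios of CPM, DN blood cells had 161 times the LysoDC level in dataset 1 and 180.4 times in dataset 2. Within blood Lrp1 was lower in DN blood cells than in CD43+ monocytes by a fitted -1.38 ± 0.17 (SE, adjusted p = 0.000164) and than in Ly6C+ monocytes by -0.92 ± 0.17 (adjusted p = 0.00528). The call against Ly6C+ monocytes was lost without the Ly6C+ sum of dataset 2 (adjusted p = 0.104). CD43+ over Ly6C+ monocytes gave 0.46 ± 0.17 (SE, adjusted p = 0.0638), which missed the threshold, although the CPM ratio was 1.77 in dataset 1 and 1.45 in dataset 2. cDC2s were near LysoDCs, at 3.43 CPM (maturing) and 2.21 CPM (immature).

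Msr1 was at 188 CPM in follicular, 205 CPM in immature, 207 CPM in intermediate and 193 CPM in mature LysoDCs, and at 216 CPM in LysoDCs of dataset 2. DN blood cells had 28.5 and 4.38 CPM, CD43+ monocytes 24.2 and 10.0 CPM and Ly6C+ monocytes 96.0 and 94.5 CPM. LysoDCs were above all blood populations, and Ly6C+ monocytes above the other blood cells. In DN blood cells Msr1 was at 14.2% of the LysoDC level in dataset 1 and 2.03% in dataset 2, beside C1q at 5.22% and 1.001%. LysoDCs exceeded monocytes by a fitted 2.60 ± 0.66 (SE, adjusted p = 0.0358) and DN blood cells by 4.09 ± 0.85 (adjusted p = 0.0216). Both calls were unstable. Over monocytes the call was lost without either sum of LysoDCs, CD43+ or Ly6C+ monocytes and with a background-scaled hashtag call (adjusted p from 0.056 to 0.247). Over DN blood cells it was lost without either sum of LysoDCs or CD43+ monocytes and without the Ly6C+ sum of dataset 2 (0.0521 to 0.113). The change in DN blood cells over Ly6C+ monocytes, -2.90 ± 0.83 (SE, adjusted p = 0.112), did not pass the test. Its CPM ratio was 0.297 in dataset 1 and 0.0463 in dataset 2.

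Marco, the other class A receptor, had no UMI in any LysoDC or cDC2 population and none in Ly6C+ monocytes. It was found in CD43+ monocytes, with 5 UMIs (2.01 CPM) in dataset 1 and 54 UMIs (20.8 CPM) in dataset 2. DN blood cells held 1 UMI in dataset 1 and 48 UMIs (1.67 CPM) in dataset 2. The UMIs of dataset 2 lay in few cells, 24 of 952 CD43+ monocytes and 12 of 4971 DN blood cells. Measured against a limit of 3 UMIs per sum, CD43+ monocytes were at least 2.74-fold higher than Ly6C+ monocytes in dataset 1 and at least 36.0-fold higher in dataset 2. By the same measure LysoDCs were 50.8-fold lower than CD43+ monocytes in dataset 2. The test called Marco higher in CD43+ than in Ly6C+ monocytes (adjusted p = 0.00042) and lower in DN blood cells than in CD43+ monocytes (adjusted p = 0.000607). The first call was lost without the Ly6C+ sum of dataset 2 (adjusted p = 0.0962) and with no block (0.141). The second was lost without the DN (0.0595) or CD43+ (0.123) sum of dataset 2 and with no block (0.188). Calls for DN blood cells over Ly6C+ monocytes (adjusted p = 0.0358) and LysoDCs over DN blood cells (0.0033) also rested on dataset 2 and were lost in 7 and 3 of 15 settings. Marco was not called in LysoDCs over monocytes, where no SE could be computed. LysoDCs and Ly6C+ monocytes both had no Marco UMI, so that test cannot decide whether LysoDCs and monocytes differed.

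**Figure D2:**
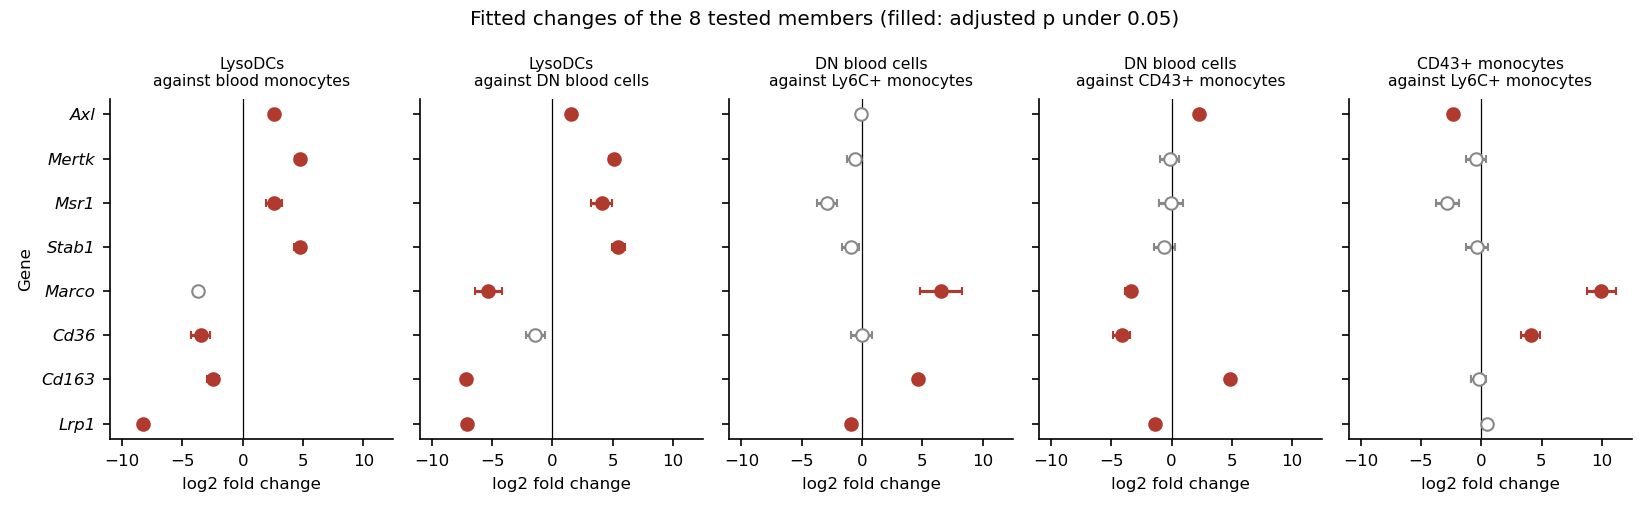
Fitted log2 fold changes (x axis) of the 8 tested members (rows) in the 5 comparisons, with bars of 1 approximate SE where one could be computed; filled points have an adjusted p under 0.05. Lrp1 lies farthest left in LysoDCs over monocytes (-8.27), and fitted changes of Marco are no measure of size in the 4 comparisons that include LysoDCs or Ly6C+ monocytes, which had no Marco UMI. Mertk was among the proteins stained for the Peyer's patch sort, so its LysoDC points are a description.

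Cd36 was highest in CD43+ monocytes. LysoDCs had 3.46 and 2.05 CPM in the 2 datasets, DN blood cells 15.7 and 2.95 CPM, CD43+ monocytes 174 and 137 CPM and Ly6C+ monocytes 5.63 and 9.04 CPM. CD43+ monocytes stood far above every other population in both datasets. They exceeded Ly6C+ monocytes by a fitted 4.12 ± 0.79 (SE, adjusted p = 0.029), and DN blood cells were lower than CD43+ monocytes by -4.15 ± 0.72 (adjusted p = 0.0194). The first call was lost without either sum of LysoDCs, CD43+ or Ly6C+ monocytes (adjusted p from 0.0753 to 0.173). The second was lost without either sum of LysoDCs or CD43+ monocytes (0.0769 to 0.122). LysoDCs over monocytes gave -3.50 ± 0.78 (SE, adjusted p = 0.0225), lost in 5 of 15 settings: without either LysoDC or CD43+ sum and without the Ly6C+ sum of dataset 2 (0.0545 to 0.204). Over DN blood cells the LysoDC change was -1.41 ± 0.79 (adjusted p = 0.219). Cd36 is also expressed by platelets and endothelium. The platelet list of 7 genes summed to 0.805 and 0.770 CPM in CD43+ monocytes. No CD43+ monocyte had a Pf4 or Ppbp UMI, so leaving out such cells left these sums as they were. The 5 endothelial markers summed to 119 and 191 CPM in CD43+ monocytes, more than in any other population. Of these, Pecam1 was at 103 and 175 CPM and Vwf at 15.7 and 15.4 CPM, whereas Cdh5 and Emcn were at 0. The part of endothelial RNA in the Cd36 levels was not tested.

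Cd163 was highest in DN blood cells. LysoDC gates of dataset 1 held 1 or 2 UMIs each and LysoDCs of dataset 2 held 2. DN blood cells were at 28.5 and 39.0 CPM, against 0.403 and 2.31 CPM in CD43+ monocytes and 1.22 and 1.54 CPM in Ly6C+ monocytes. No other population overlapped the DN values. The fitted DN change was 4.86 ± 0.34 over CD43+ monocytes (SE, adjusted p = 5.12e-06) and 4.63 ± 0.30 over Ly6C+ monocytes (adjusted p = 2.06e-05), and LysoDCs were lower than DN blood cells by -7.20 ± 0.31 (adjusted p = 3.37e-08). These 3 calls were made in each of the 15 alternative settings. The lower level in LysoDCs than in monocytes (-2.46 ± 0.51, adjusted p = 0.0017) was lost without the CD43+ sum of dataset 2 (adjusted p = 0.15). All 6 UMIs of that sum lay in 1 cell.

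Stab1 was at 105 CPM in follicular, 84.5 CPM in immature, 60.9 CPM in intermediate and 50.9 CPM in mature LysoDCs, and at 87.4 CPM in LysoDCs of dataset 2. DN blood cells had 3.94 and 0.834 CPM, CD43+ monocytes 4.03 and 2.70 CPM and Ly6C+ monocytes 4.16 and 3.27 CPM. LysoDCs did not overlap any blood population. The change was 4.71 ± 0.45 over monocytes (SE, adjusted p = 0.00053) and 5.48 ± 0.52 over DN blood cells (adjusted p = 0.000584), and both calls were made in each of the 15 alternative settings. In blood of dataset 1 Stab1 was at 5.41% to 5.72% of its LysoDC level, beside C1q at 5.001% to 5.91%. The 3 comparisons within blood did not pass (adjusted p from 0.46 to 0.811).

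Within blood the counts of members called were 2 higher and 1 lower for DN over Ly6C+ cells (16.3% of all genes called), 2 higher and 3 lower for DN over CD43+ cells (34.7%), and 2 higher and 1 lower for CD43+ over Ly6C+ monocytes (29.7%). The median fitted change over the 8 members was -0.33, -0.38 and -0.29 in these comparisons, beside 0.02, 0.02 and 0.01 over all genes tested. The 3 comparisons share sums, so their values are set side by side only. Cd163 and Axl separated DN blood cells from CD43+ monocytes upward, and Lrp1, Cd36 and Marco downward.

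Across the LysoDC gates Axl and Mertk were highest in follicular cells, Msr1 ranged between 188 and 207 CPM and Cd36 was highest in mature cells. Stab1 was highest in follicular cells, followed by immature, intermediate and mature cells, which is an order of levels only. No test was possible with 1 sum per gate, and a member counted only with a CPM ratio of 2 or more, separate 95% Poisson intervals and at least 10 CPM. Only Axl, Mertk, Msr1 and Stab1 reached 10 CPM in these gates, so the other members could not count. By that rule 0 members differed between follicular and immature LysoDCs, where 0.904% of 7192 genes at that level did. Likewise 0 members differed for intermediate (0.454% of genes) and mature (2.20%) over immature cells. Axl had 1.89 times the immature level in follicular cells (1.70 to 2.11) and Mertk 1.78 times (1.57 to 2.01). Follicular cells had 2.59 times the mature level of Mertk (2.20 to 3.04), 2.07 times that of Axl (1.83 to 2.35) and 2.06 times that of Stab1 (1.80 to 2.35). The rule was not applied to all genes for this pair of gates, so these ratios have no share of all genes beside them. The intervals of Axl and Stab1 reach below 2, and all 3 ratios are descriptions only. Mature LysoDCs had 0.602 times the immature level of Stab1 (0.528 to 0.686). For Msr1 the ratio to immature cells was 0.922 in follicular, 1.01 in intermediate and 0.942 in mature cells.

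**Figure D3:**
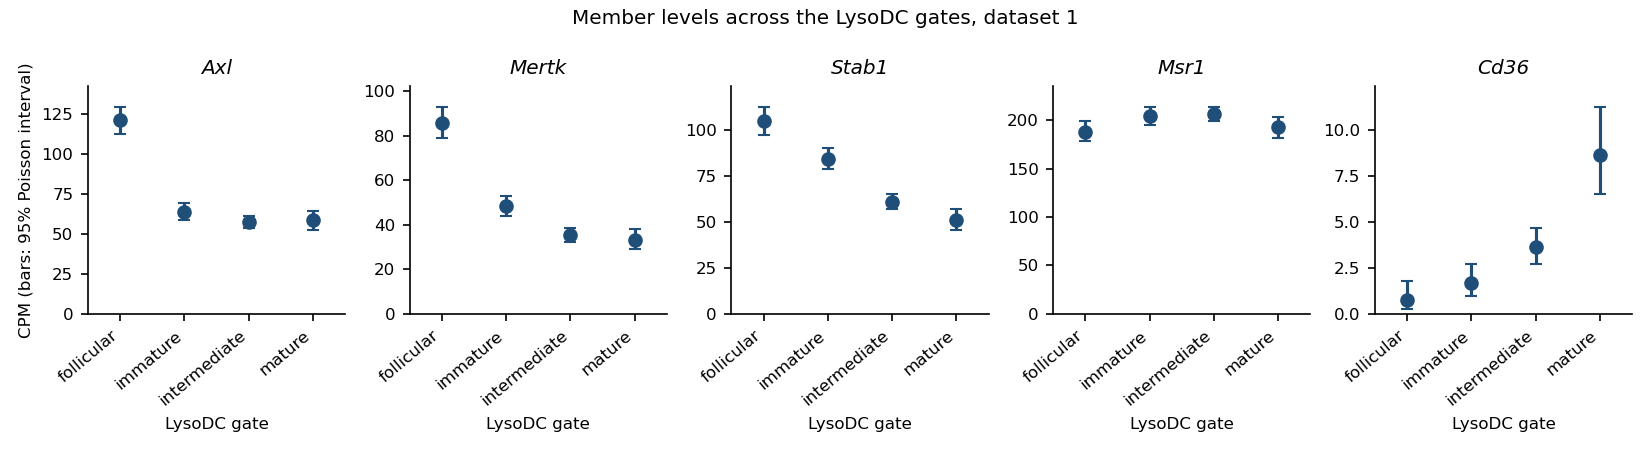
CPM of 5 members (y axes, starting at 0) in the 4 LysoDC gates of dataset 1, with bars of 95% Poisson intervals that cover counting error only. Axl and Mertk are highest in follicular cells, Stab1 is at 105 CPM in follicular and 50.9 CPM in mature cells, Msr1 stays between 188 and 207 CPM and Cd36 reaches 8.64 CPM in mature cells.

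Cd36 was low in every gate, at 0.749 CPM in follicular, 1.67 CPM in immature, 3.60 CPM in intermediate and 8.64 CPM in mature LysoDCs, or 5, 16, 56 and 55 UMIs. The ratio of mature to immature cells was 5.17 (2.92 to 9.67), below the 10 CPM that the rule needs. Platelet markers summed to 14.7, 15.0, 24.4 and 32.0 CPM in the same order of gates. Of the 7 platelet genes, 0 reached 10 CPM in follicular cells and 1 in each other gate. Cells without a Pf4 or Ppbp UMI numbered 609 of 644, 688 of 708, 1056 of 1065 and 467 of 469. Endothelial markers summed to 2.55, 3.45, 6.23 and 12.7 CPM, nearly all of it Pecam1, with Emcn at 0 in every gate. Both sums rose with Cd36, whereas cells with a Pf4 or Ppbp UMI became fewer from follicular to mature gates. The part of platelet or endothelial RNA in the Cd36 levels was not tested. In dataset 2 the 3 LysoDC hashtags with over 4 cells were at 96.0, 70.4 and 87.8 CPM for Axl, 49.3, 55.5 and 44.2 CPM for Mertk, and 75.0, 95.4 and 89.7 CPM for Stab1. No hashtag was the highest of the 3 for all of these genes.

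Clusters of LysoDCs, made without the members and the related lists among the variable genes, showed graded levels of the same receptors. In dataset 1 a cluster of 568 cells led by Tlr12, Tspan10 and Atp13a2 was at 140 CPM of Axl, 91.9 CPM of Mertk and 120.3 CPM of Stab1, and 427 of its cells were sorted as follicular. In dataset 2 a cluster of 223 cells led by Cd4, Ttn and Selenop was at 155.0, 97.2 and 134 CPM. The other 7 clusters of dataset 1 ranged from 38.8 to 252 CPM for Axl, the highest being 24 cells led by Ifit3b, Ifit3 and Cxcl10, which are interferon-induced genes. Il12b-led clusters had the most Cd36, at 8.95 CPM in 772 cells of dataset 1 and 6.70 CPM in 114 cells of dataset 2. A further cluster of 117 cells in dataset 1 was led by Gzma, Cd79a and S100a9, genes of lymphocytes and neutrophils, and Msr1 was at 81.1 CPM there. Clusters describe these cells and were not tested.

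cDC2s had little of the receptors that were high in LysoDCs. Immature LysoDCs exceeded immature cDC2s 12.3-fold for Axl (95% interval 8.92 to 17.4), 41.3-fold for Mertk (21.6 to 90.9), 22.2-fold for Msr1 (17.5 to 28.5) and 10.0-fold for Stab1 (7.77 to 13.1). These 4 members met the size rule, and they were the only members at 10 CPM or more in either population. Of the 7810 genes at that level, 23.8% met the rule. Mertk is given as a description because of the sort stain. Timd4 ran against them, with 0 UMIs in immature LysoDCs and 64 in immature cDC2s. Maturing cDC2s had more Msr1 (36.2 against 9.21 CPM) and Timd4 (17.6 against 8.31 CPM) than immature cDC2s, so 2 members met the rule. Of the members only these and Stab1 reached 10 CPM in either population. Of the 7537 genes at that level, 3.28% met the rule. The Timd4 UMIs lay in few cells, 13 of 262 maturing and 35 of 1009 immature cDC2s. The shares of cells with a UMI overlapped, at 4.96% (2.67 to 8.34) in maturing and 3.47% (2.43 to 4.79) in immature cDC2s. C1q moved with Msr1: in maturing cDC2s Msr1 was at 18.0% and C1q at 19.1% of the LysoDC level, against 4.59% and 3.42% in immature cDC2s. Stab1 was at 22.9% and 11.6% in the same 2 populations. Timd4, which was also higher in maturing cDC2s, had 0 to 2 UMIs in each LysoDC gate. The part of LysoDC RNA in the Msr1 and Stab1 values of cDC2s was not tested.

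DN blood cells were not uniform in these receptors. A cluster led by Fabp4, which encodes a fatty acid-binding protein, held 477 of 2118 DN cells (22.5%) in dataset 1 and 398 of 4971 (8.01%) in dataset 2. It carried 90.1% and 81.2% of all DN Cd36 UMIs, at 73.9 and 35.4 CPM against 1.92 and 0.596 CPM in the remaining DN cells. Lrp1 was at 412 and 248 CPM in it, against 106 and 87.6 CPM in the others. Cd163 was nearly missing from it, at 1.09 and 4.61 CPM against 35.0 and 41.5 CPM.

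Axl and Msr1 followed Cd36 and Lrp1 rather than Cd163. Axl was at 61.9 and 77.9 CPM in the Fabp4-led cells, against 29.7 and 17.4 CPM in the remaining DN cells. Msr1 was at 61.4 and 30.7 CPM, against 20.8 and 2.46 CPM. Marco had 36 of its 48 DN UMIs of dataset 2 in the Fabp4-led cluster and 10 in 27 cells led by Cd79a, a B cell gene. Cd163 was highest in clusters with Mgl2 among the leading genes, at 55.2 CPM in dataset 1 and 60.4 CPM in dataset 2. Cd7-led cells had Cd163 at 30.2 and 49.6 CPM but Axl at 7.18 and 3.79 CPM. Markers of CD43-high monocytes summed to 263 and 130.2 CPM in DN blood cells, against 2272 and 2187 CPM in CD43+ monocytes. They moved with Cd36, and their part in the DN levels was not tested. The 5 genes of this list include Fabp4, so the list and the Fabp4-led cluster are not independent.

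**Figure D4:**
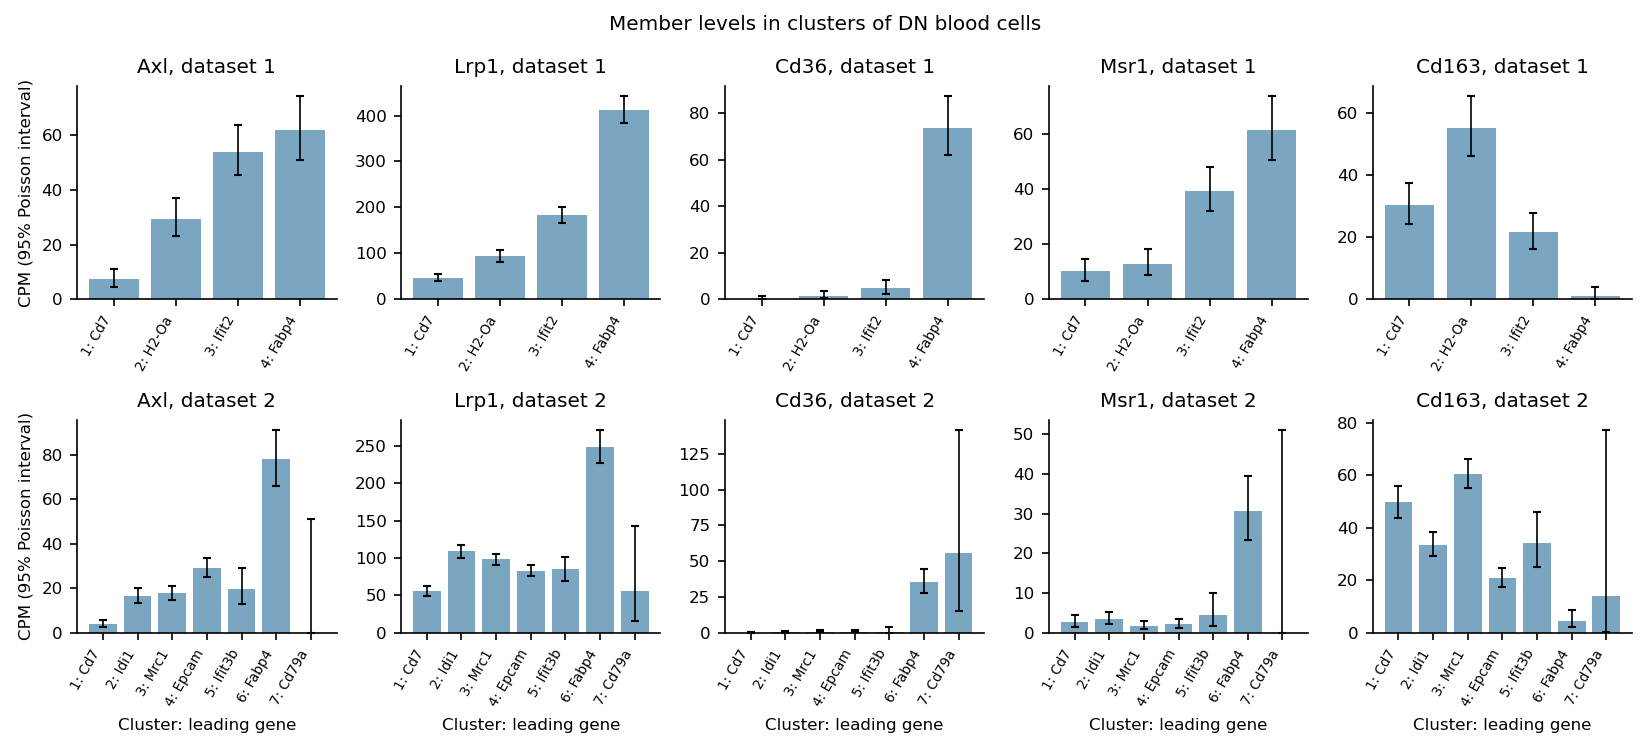
CPM of 5 members (y axes, starting at 0) in clusters of DN blood cells, named by number and first leading gene, for dataset 1 (top) and dataset 2 (bottom), with bars of 95% Poisson intervals. The Fabp4-led cluster is high for Axl, Lrp1, Cd36 and Msr1 and low for Cd163 in both datasets; the Cd79a-led cluster has 27 cells and wide intervals.

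Shares of cells with a UMI were taken after each cell was thinned to 1000 UMIs. Msr1 was found in 15.7% of follicular LysoDCs (exact Clopper-Pearson 95% interval 12.96 to 18.7) and in 1.09% of immature cDC2s (0.545 to 1.94). Unthinned, these shares were 75.5% and 6.54%, at median depths of 10565 and 7370 UMIs. Axl was found in 12.1% of follicular LysoDCs (9.69 to 14.9) and 0.595% of immature cDC2s, or 60.4% and 3.47% unthinned. Lrp1 was found in 34.9% and 30.1% of CD43+ monocytes, and in at most 0.155% of any LysoDC population. Cd163 was found in 2.88% and 3.60% of DN blood cells, against 0% to 0.346% of the other populations. With 10 members counted, the mean number detected per thinned cell was 0.481 in follicular LysoDCs, 0.551 and 0.467 in CD43+ monocytes and 0.0396 in immature cDC2s.

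The genes whose CPM ran most like each member over the 13 sums were named by Pearson's r on log2(CPM + 1), as a description of points that share libraries and tissue. Stab1 was closest to Mitf (r = 0.99), Ctsz (0.99) and Clmp (0.99), and Mertk to Cd79b (0.98), Il18bp (0.98) and Ctsl (0.98). Axl was closest to Slc31a2 (r = 0.96), Plxnd1 (0.94) and Tbxas1 (0.94), and Msr1 to Gbp2 (0.98), Vill (0.98) and Rnaseh2c (0.97). Lrp1 was closest to Rara (r = 0.99), Dgkg (0.99) and Adssl1 (0.99), and Cd36 to Usp32 (0.97), Smpdl3b (0.97) and Myo1c (0.96). Among the members, Mertk and Stab1 ran together (r = 0.96), and Lrp1 and Stab1 ran in opposite directions (r = -0.88).

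Related genes of uptake did not all follow the receptors, and the counts below stand beside 58.0% of all genes called in LysoDCs over monocytes. Of 9 bridging molecules, 4 were higher and 5 lower in LysoDCs than in monocytes, the 4 including C1qa, C1qb and C1qc. Of 17 other uptake receptors tested, 5 were higher and 9 lower: Cd300lf, a phosphatidylserine-binding receptor, was higher (2.90 ± 0.17, adjusted p = 2.53e-07), whereas Cd300a (-3.30 ± 0.20) and the lipoprotein receptor Scarb1 (-4.34 ± 0.24) were lower. Of 11 engulfment genes 2 were higher and 6 lower, among them Rac2, a small GTPase of phagocyte cytoskeleton and oxidase (-3.94 ± 0.18, adjusted p = 3.47e-08), and Ptk2, which encodes focal adhesion kinase and was higher (4.42 ± 0.28). Of 10 genes of LC3-associated phagocytosis 1 was higher and 5 were lower, with changes under 1 for the 4 named by the rule (Atg7, Pik3c3, Atg5 and Atg12). Of 12 nuclear receptor and lipid efflux genes, 6 were higher and 5 lower. Nr1h3, which encodes the oxysterol receptor LXR alpha, was higher (3.10 ± 0.15, SE, adjusted p = 4.77e-08). It was at 402 and 326 CPM in LysoDCs, against 92.2 and 70.5 CPM in CD43+ and 41.4 and 19.6 CPM in Ly6C+ monocytes. Pparg, which encodes a fatty acid-sensing nuclear receptor, was at 71.7 and 70.5 CPM in CD43+ monocytes, where Cd36 was high, against 4.16 and 5.96 CPM in Ly6C+ monocytes (3.57 ± 0.29, SE, adjusted p = 1.43e-05). Of 8 genes that shed or restrain such receptors 4 were higher and 2 lower in LysoDCs, including the protease gene Adam17 (0.81 ± 0.12, adjusted p = 0.000201).

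In DN blood cells over CD43+ monocytes, 2 of 17 other uptake receptors were higher and 5 lower, where 34.7% of all genes were called. The mannose receptor gene Mrc1 was higher (6.86 ± 0.41, SE, adjusted p = 4.92e-06), and Olr1 (-4.83 ± 0.50), Itgav (-1.79 ± 0.19) and Itgb3 (-4.04 ± 0.46) were lower. Mrc1 was at 120.4 and 78.4 CPM in DN blood cells, against 2.01 and 0 CPM in CD43+ monocytes and 23.5 and 18.1 CPM in Ly6C+ monocytes. Of 12 nuclear receptor and lipid efflux genes 2 were higher and 7 lower, with Pparg at -3.26 ± 0.25 (adjusted p = 9.33e-06). Mrc1 was thus highest in blood where Cd163 was, and Pparg where Cd36 was.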

How the data were processed

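UMI counts per gene and per hashtag in single cells were used as deposited. Per the file headers they were written by cellranger 6.0.1, whereas the submitters' processing notes name Cell Ranger 2.0.0 and the mm10 build; no normalization had been applied. Messenger RNA and hashtags were captured with a 10x 3' kit per the labels' protocols. Within each dataset, barcodes were assigned to hashtags by HTODemux (Seurat 5.3.0, quantile 0.99) using barcodes with at least 1 hashtag UMI, which gave 9069 and 8516 single-hashtag cells; 2038 and 4572 barcodes with several hashtags were left out, which treats all of them as doublets. Cells needed 1000 UMIs, 500 genes and at most 10% mitochondrial UMIs. Raw counts were summed per population and dataset, and 8 sums were tested with edgeR 4.0.16 (TMM, filterByExpr, robust quasi-likelihood, two-sided, Benjamini-Hochberg over 11474 genes, R 4.3.3), the script having been tested on simulated data. Residual degrees of freedom were 3. SE is the change divided by the square root of F and is rough for genes nearly absent from a population. In the monocyte comparison the logs of CD43+ and Ly6C+ monocytes were averaged. Poisson and Clopper-Pearson intervals are at 95% and cover counting error only. Clusters came from scanpy 1.11.5 (2000 variable genes, 30 components, 20 neighbours, Leiden resolution 0.5). Named were all 10 members, up to 4 genes per related list by adjusted p, the 3 most alike genes per member with a mean of 10 CPM, and 3 leading genes per cluster (at least 50 CPM). Not every gene that this rule named is printed. Naming Tyro3, C1qa, C1qb, C1qc and the cell type markers lies outside it. Members and lists were chosen with earlier results of these data known. Assigning dataset 2 LysoDCs to gates was left out. Alternatives were DESeq2 1.42.0, other filters, hashtag calls and depths, and each sum left out.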

Additional observations from a re-analysis of the deposited data

Results flagged for a closer look

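Cd36 differed in direction between the datasets in DN blood cells over Ly6C+ monocytes. The CPM ratio was 2.78 in dataset 1 (15.7 against 5.63 CPM) and 0.327 in dataset 2 (2.95 against 9.04 CPM), and the 95% interval of each ratio left out 1. The difference between the datasets was not tested beyond these counting intervals, with 1 pool per dataset. The Fabp4-led cluster that held most Cd36 made up 22.5% of DN blood cells in dataset 1 and 8.01% in dataset 2, and its part in the difference was not tested. DN blood cells of dataset 2 merge the CCR2+ and CCR2- sorts.

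Gas6 was at 0.825 CPM (27 UMIs) in the 3099 barcodes of dataset 2 with several hashtags, which no comparison used, above the highest population of that dataset (0.409 CPM in LysoDCs). The LysoDC value rests on 3 UMIs, and its 95% Poisson interval of 0.0844 to 1.20 CPM holds 0.825. These barcodes were near the LysoDC levels of Msr1 (206 CPM), Stab1 (76.0 CPM) and Axl (70.7 CPM).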

How the results depend on the processing

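Of 25 calls of members past the threshold, 14 held under all 15 alternatives, 11 were lost under at least 1 and 0 changed sign. Both calls of Mertk in LysoDCs are among the 25 and the 14, and because of the sort stain they are not findings. Sign changes came in 18 cases among the 15 results that had not passed. In DN blood cells over Ly6C+ monocytes, Axl came to 0.018 and Cd36 to 0.11 with HTODemux on every barcode (chosen after seeing the data), and Cd36 to 0.18 with no replicate block; leaving out 1 sum gave -0.32 to 0.22 for Axl (above 0 without DN replicate 2, 0.08, or Ly6C+ replicate 1), -1.56 to 0.37 for Mertk, -1.19 to 1.01 for Cd36 (above 0 without DN replicate 2, 0.91, or Ly6C+ replicate 2) and -2.09 to 0.10 for Stab1. In DN over CD43+ cells, Msr1 came to 0.060 with no replicate block and 0.0027 on every barcode, and leaving out 1 sum gave -1.15 to 0.78 for Mertk, -1.60 to 0.86 for Msr1 and -1.75 to 0.44 for Stab1. In CD43+ over Ly6C+ monocytes Cd163 came to 0.89 with the background-scaled hashtag call and 0.70 on every barcode, and to -1.66 to 0.27 with 1 sum left out. With no replicate block 1082 genes were called for DN over Ly6C+ cells, against 1872. Leaving out 1 sum each gave 383 to 2328 genes there, 1777 to 3986 for DN over CD43+ cells (3980) and 1433 to 3747 for CD43+ over Ly6C+ monocytes (3413). The background-scaled hashtag call moved the log2 ratio of immature LysoDCs over immature cDC2s to 3.00 for Axl, 4.32 for Mertk, 3.87 for Msr1 and 2.86 for Stab1, against 3.60, 5.29, 4.46 and 3.31. Of 130 pairs of member and population, 44 had at least 5% of cells with a UMI unthinned, against 27 when thinned to 1000 UMIs. At resolution 1.0 there were 44 clusters, against 24. Causes were not tested. Depth limits Gas6, Timd4 and Marco, which had few UMIs in most populations.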

Other observations

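Among barcodes of dataset 1 in which no hashtag was called (538 barcodes past the cell filters), Cd163 was at 26.9 CPM, Lrp1 at 93.3 CPM and Cd36 at 1.79 CPM. DN blood cells of that dataset were at 28.5, 165 and 15.7 CPM. These barcodes belong to no labelled population and entered no comparison.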
